A study of Rattus norvegicus with 31 samples.

Results

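The contractile apparatus of peritubular myoid cells and other smooth muscle was followed as a set of 36 genes chosen by name: smooth muscle actins and myosin chains, proteins of the thin filament, anchors and LIM proteins, integrins, enzymes that control contraction, and the transcription factors of the smooth muscle programme. Each gene was represented by the probe set that carried its symbol alone in the platform annotation and had the highest mean over the 31 arrays. Of the 36 genes, 34 had such a probe set, out of 14217 genes named in this way in the whole series. Myl6 was carried only by a probe set with several symbols and Ednra had no probe set named here, so neither has a value. Acta2 had 1 probe set of its own and was named by 5 more with several symbols, which were not used. A filter on low values kept 33 of the 34. The filter asked for a signal above the 40th percentile of its own array in at least 6 arrays of any group, so a gene could pass through a single group. Kcnmb1, a subunit of the large-conductance potassium channel of smooth muscle, was above that level in 0 arrays and was not tested. Its mean log2 signal was -3.43 ± 1.00 (SD, n = 14) in sham, -3.63 ± 0.93 (n = 11) in ablation and -3.33 ± 1.16 (n = 6) in ablation with estradiol.

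Total RNA of whole testes was hybridised to Affymetrix rat genome arrays. All rats were LBNF1 males aged 25 to 27 weeks whose lower abdomen had been exposed to 6 Gy of radiation, so every group, the controls included, is an irradiated testis. The sham group (14 arrays) received no active hormone treatment. The ablation group (11 arrays) received an antagonist of gonadotropin-releasing hormone, which withdraws gonadotropins, together with an antagonist of the androgen receptor. The third group (6 arrays) received estradiol on top of both antagonists, and its label also names supplementation with FSH, follicle-stimulating hormone. The titles of all 14 sham arrays call the testes irradiated, but the descriptions of 10 of them say control and those of 4 say irradiated. The 6 estradiol arrays were deposited later than the other 25, so an effect of estradiol and an effect of the later deposit cannot be told apart. The labels call the arrays biological replicates, and p-values reflect the spread between them. The comparisons ask what hormone withdrawal does to the irradiated testis and what estradiol adds to it.

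Peritubular myoid cells are flattened contractile cells that surround the seminiferous tubule. They squeeze the tubule fluid and sperm onward, and with the Sertoli cells they lay down the basement membrane of the tubule wall. They carry androgen receptors, and androgen acting on them is needed for normal support of spermatogenesis. Their contraction runs as in other smooth muscle: calcium and calmodulin switch on myosin light chain kinase, which phosphorylates the regulatory light chain of myosin, and myosin phosphatase reverses it. Serum response factor with its cofactor myocardin turns the smooth muscle genes on through short promoter elements called CArG boxes. Vascular smooth muscle in the testis uses the same genes, and in RNA of whole testis these sources cannot be separated, nor can fewer cells of a type and less RNA per cell be told apart.

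Promoter sequence bears on these genes because they share a named regulator, so the CArG box was searched in the 250 bases before the transcription start in RefSeq sequence of build GRCr8. A window was held for 29 of the 36 genes, and 2 for Cald1. Those without an entry were Myh11, Myl9, Tagln, Lmod1, Actn4, Pdlim3 and Myocd. The full CArG box stood in the windows of 2 members, Srf and Cnn2, against 1.50% of all 33469 windows in the table. Allowing 1 position to differ from the box, 8 of the 30 windows of members had a match, against 18.7% of all windows. Counted by gene these were 8 of the 29 members (27.6%). The palindromes GGTCANNNTGACC and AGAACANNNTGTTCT, the forms bound by estrogen and by androgen or glucocorticoid receptors, stood in 0 of the 30 windows of members and in 0.0239% and 0.0120% of all windows. Both strands were searched. A match describes the letters only, and the lack of one says only that these letters are not in this window. The windows of Acta2, Srf and Cnn2 are printed because Srf and Cnn2 hold the full boxes and Acta2 is the usual marker of myoid cells. Capitals mark each box and each match with 1 position off. They lie at chr1:241172504-241172753 (minus strand), chr9:21923826-21924075 (plus strand) and chr7:10370313-10370562 (minus strand).
Acta2: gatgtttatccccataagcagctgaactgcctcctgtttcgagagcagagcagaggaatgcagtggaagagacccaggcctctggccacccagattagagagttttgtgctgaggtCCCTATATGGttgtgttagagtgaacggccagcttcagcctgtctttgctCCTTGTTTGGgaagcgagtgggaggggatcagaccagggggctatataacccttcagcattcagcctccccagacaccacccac
Srf: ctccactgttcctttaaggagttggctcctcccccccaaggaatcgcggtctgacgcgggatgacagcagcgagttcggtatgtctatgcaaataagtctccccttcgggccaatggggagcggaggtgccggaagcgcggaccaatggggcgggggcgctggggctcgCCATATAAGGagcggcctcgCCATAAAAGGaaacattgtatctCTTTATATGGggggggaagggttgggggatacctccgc
Cnn2: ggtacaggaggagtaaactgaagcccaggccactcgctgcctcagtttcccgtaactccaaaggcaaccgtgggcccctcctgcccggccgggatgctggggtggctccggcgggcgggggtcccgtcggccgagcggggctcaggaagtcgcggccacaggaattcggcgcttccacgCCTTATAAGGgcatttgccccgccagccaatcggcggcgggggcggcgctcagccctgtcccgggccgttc
The matches of Acta2 begin 134 and 84 bases before the start, and both have 1 position off. Srf holds full boxes at 81 and 61 bases and a match with 1 position off at 38. The box of Cnn2 begins 71 bases before the start.

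The median of an array ran from -1.44 to -1.24, and the highest correlation between 2 arrays was 0.974, so none is a copy of another. The log base is not stated in the sources used here and was read as 2, and all folds rest on that reading. The difference between the 3′ and 5′ probe sets of Actb, a sign of RNA quality, was 0.46 to 2.41 (mean 1.37) in sham and 1.19 to 1.91 (mean 1.50) in ablation. That of Gapdh was -0.06 to 0.95 (mean 0.38) and 0.30 to 0.90 (mean 0.56), and the deposited estradiol values used here hold no such controls. The part of this difference in the results was not tested. The spermatid gene Prm1 was above a log2 signal of 0 in 3 of 14 sham, 5 of 11 ablation and 0 of 6 estradiol arrays. The number of arrays limits the precision.

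Ablation was accompanied by lower RNA of the contractile apparatus. Of the 33 members tested, 14 were lower and 0 were higher than in sham at an adjusted p under 0.05 (limma, adjusted over all 21269 probe sets by Benjamini and Hochberg). Over all probe sets tested, 10.3% were called lower and 9.15% higher. With 1 probe set per named gene 12.8% were lower, and among such genes with a mean above 0 the share was 15.9%, against 42.4% of the members. At an unadjusted p under 0.05, 18 members were lower and 0 higher. The median change of the members was -0.24 (log2) against 0.02 over all probe sets. The called changes ran from -1.07 for Tagln to -0.31 for Tagln2. In none of the 33 did the 2 groups separate without overlap, which 1.4% of all probe sets did in the lower direction.

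**Figure D1:**
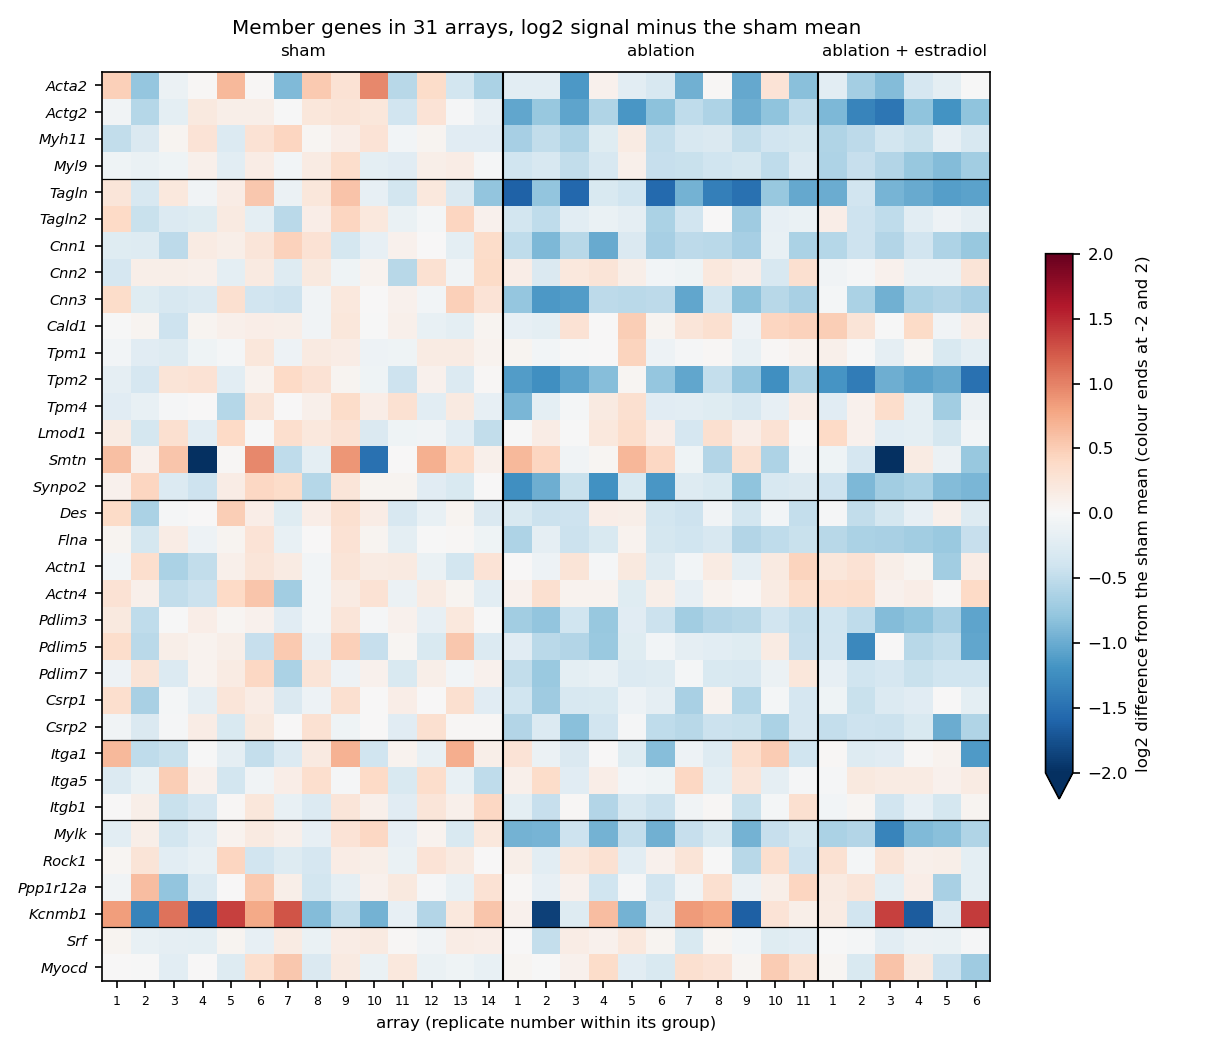
Log2 signal of the 34 members in every array minus the mean of the 14 sham arrays, with genes in rows grouped by role, arrays in columns grouped by treatment, and red for higher and blue for lower. Tagln, Actg2, Tpm2, Cnn3 and Mylk are blue in most ablation and estradiol arrays, while Cald1, Cnn2, Srf and the integrins are pale, and Kcnmb1, the row below the filter level, varies within every group.

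By role, 3 of 4 actins and myosin chains fell, 6 of 12 thin filament proteins, 4 of 9 anchors and LIM proteins, 1 of 3 enzymes of contraction control, 0 of 3 integrins and 0 of 2 transcription factors. Of the 16 members tested that are enriched in smooth muscle, 10 fell, with a median change of -0.40. Of the 17 that many cell types express, 4 fell, with a median of -0.10. The roles and this division were assigned from general knowledge of the genes, with earlier results of these data known. They were not set against each other in a test. Some placements are open to choice: Csrp1 was counted as enriched and its relative Csrp2 as widely expressed.

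**Figure D2:**
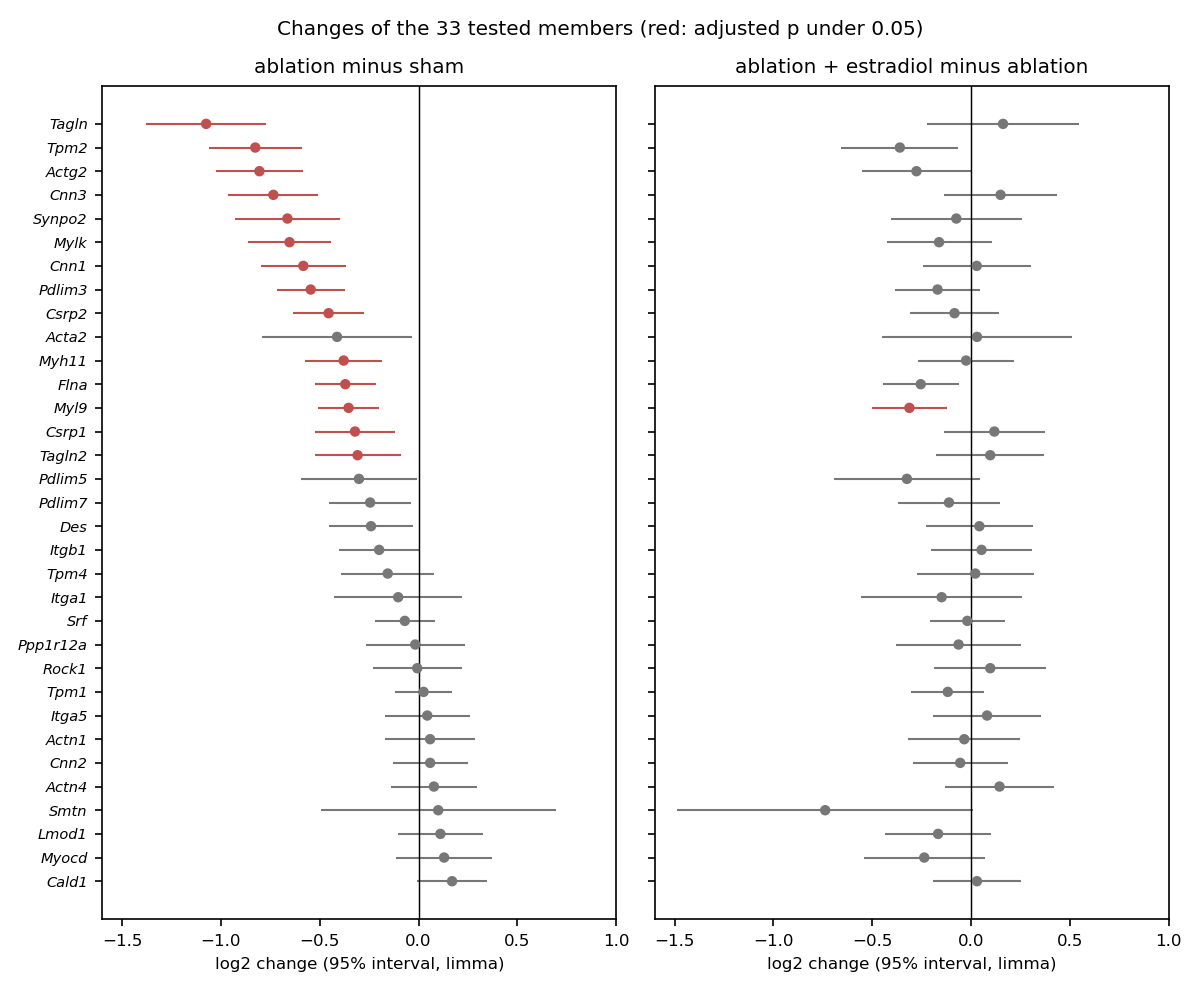
Log2 change of the 33 tested members with its 95% interval from limma, ablation minus sham on the left and ablation with estradiol minus ablation on the right, with red for an adjusted p under 0.05. On the left 14 members are red, from Tagln at -1.07 to Tagln2 at -0.31, and on the right Myl9 alone is red at -0.31.

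Among the actins and myosins, Actg2, the gamma actin of enteric and other smooth muscle, changed most. Its log2 signal ran from -1.15 (median -0.53) to -0.31 in sham, from -1.74 (median -1.39) to -1.08 in ablation, and from -2.03 (median -1.63) to -1.39 in estradiol. Ablation arrays were low as a group: 9 of 11 lay below the lowest sham array. The fall with ablation was 1.75-fold (log2 change -0.81, SE 0.11, adjusted p = 4.9e-07).

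Myl9 encodes the regulatory light chain that myosin light chain kinase phosphorylates. Its signal ran from 3.07 (median 3.26) to 3.65 in sham, from 2.79 (median 2.90) to 3.41 in ablation, and from 2.43 (median 2.64) to 2.84 in estradiol. All but 1 of the 11 ablation arrays lay below the lowest sham array, and the exception, ablation array 5, was among the sham values. Myl9 fell 1.28-fold with ablation (-0.35, SE 0.08, adjusted p = 0.000638).

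Myh11, the heavy chain of smooth muscle myosin, ranged from 2.04 (median 2.58) to 2.97 in sham, from 1.88 (median 2.15) to 2.69 in ablation, and from 1.94 (median 2.13) to 2.37 in estradiol. The groups overlapped widely, with 2 of 11 ablation arrays below the lowest sham array but 10 of 11 below the sham mean. It fell 1.30-fold with ablation (-0.38, SE 0.10, adjusted p = 0.00391).

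Acta2, the smooth muscle alpha actin that is the usual marker of myoid cells, had a spread within sham larger than its difference between groups. Its signal ran from 1.71 (median 2.62) to 3.56 in sham, from 1.44 (median 2.38) to 2.87 in ablation, and from 1.72 (median 2.33) to 2.59 in estradiol. The difference of ablation from sham was -0.41 (SE 0.19, 95% interval -0.79 to -0.03), and its adjusted p of 0.125 did not pass. It varied with the sham arrays used, though the 2 subsets of sham arrays were not tested against each other. Against the 4 described as irradiated it was -0.12 (adjusted p = 0.819), and against the 10 described as control -0.53 (adjusted p = 0.0717). The promoter of Acta2 printed above holds a pair of near matches to the CArG box.

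**Figure D3:**
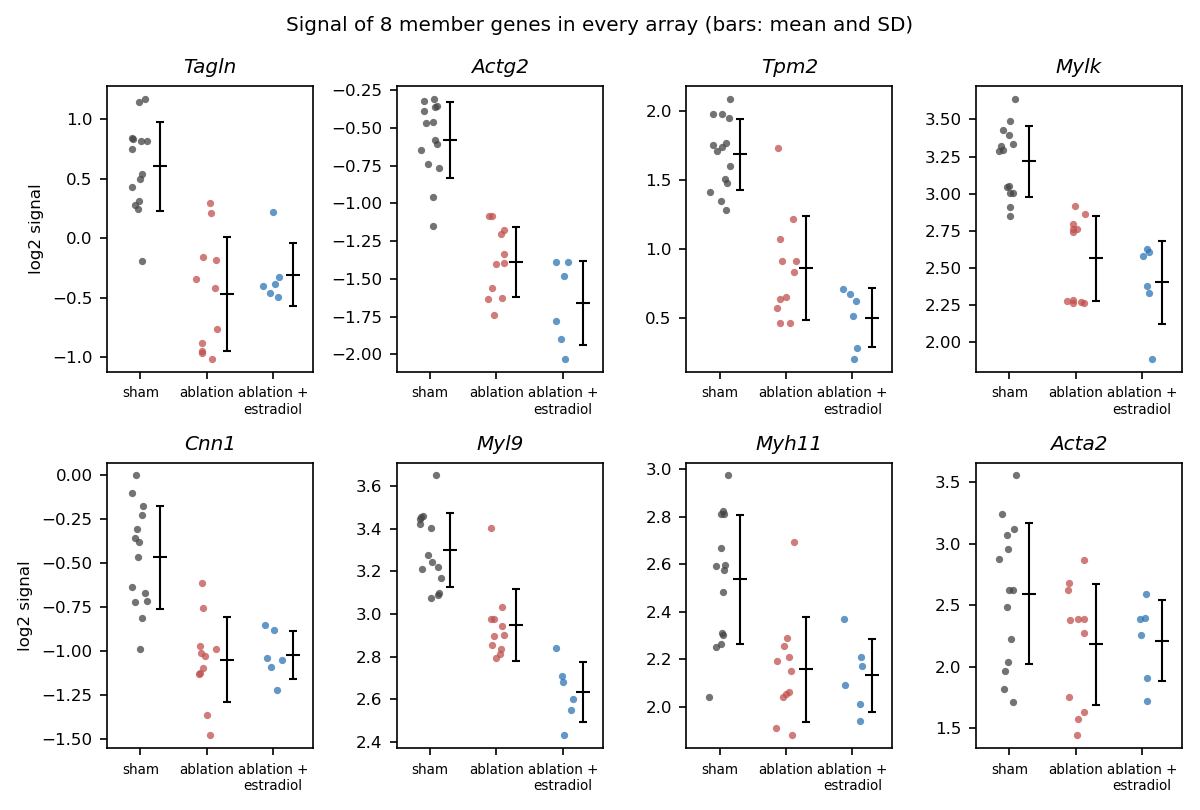
Log2 signal of 8 members in each array (points) with the mean and SD of each group (bars): sham 14, ablation 11, ablation with estradiol 6 arrays. For Tagln, Actg2, Tpm2, Mylk and Myl9 most treated arrays lie under the lowest sham array, while the groups of Myh11 and Acta2 overlap, with Acta2 between 1.71 and 3.56 in sham alone.

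Thin filament proteins held the largest changes. Tagln, transgelin or SM22, an actin-binding protein widely used as a smooth muscle marker, ran from -0.19 (median 0.65) to 1.17 in sham, from -1.01 (median -0.41) to 0.30 in ablation, and from -0.49 (median -0.39) to 0.22 in estradiol. Of the 11 ablation arrays, 7 lay below the lowest sham array and 11 below the sham mean. The fall with ablation was 2.11-fold (-1.07, SE 0.15, adjusted p = 1.1e-06).

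Tpm2, the beta tropomyosin that winds along the actin filament, ran from 1.28 (median 1.73) to 2.09 in sham, from 0.46 (median 0.83) to 1.73 in ablation, and from 0.20 (median 0.56) to 0.71 in estradiol. Ablation array 5 reached the sham range, and the other 10 lay below it. Tpm2 fell 1.77-fold with ablation (-0.83, SE 0.12, adjusted p = 1.2e-06).

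The calponins, which bind actin and slow its cycling with myosin, gave a call for 2 of 3 members. Cnn1, the form of differentiated smooth muscle, had a mean of -0.47 ± 0.29 (SD, n = 14) in sham with a median of -0.42, and ran from -1.48 (median -1.03) to -0.61 in ablation and from -1.22 (median -1.04) to -0.85 in estradiol. It fell 1.50-fold with ablation (-0.58, SE 0.11, adjusted p = 9.2e-05), and 7 of 11 ablation arrays were below the lowest sham array. Cnn3, the more widely expressed acidic calponin, ran from 1.14 (median 1.53) to 2.02 in sham, from 0.39 (median 0.90) to 1.18 in ablation, and from 0.58 (median 0.92) to 1.51 in estradiol. All but 1 of the 11 ablation arrays were below the lowest sham array, and the fall was 1.66-fold (-0.73, SE 0.11, adjusted p = 5.7e-06). Cnn2, whose window holds the full CArG box shown above, averaged 0.96 ± 0.26 (n = 14) in sham and 1.02 ± 0.22 (n = 11) in ablation, a difference of 0.06 with a 95% interval of -0.13 to 0.25.

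Synpo2, synaptopodin 2 or myopodin, an actin-bundling protein of muscle, ran from -0.19 (median 0.43) to 0.81 in sham, from -0.84 (median -0.06) to 0.13 in ablation, and from -0.53 (median -0.41) to -0.03 in estradiol. Each of the 11 ablation arrays lay below the sham mean, and 5 lay below the lowest sham array. This probe set fell 1.58-fold with ablation (-0.66, SE 0.13, adjusted p = 0.00025), but the other tested probe sets of the gene did not, as given further on.

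Tagln2, the transgelin of many cell types, ran from 1.84 (median 2.41) to 2.82 in sham, from 1.68 (median 2.18) to 2.40 in ablation, and from 1.88 (median 2.19) to 2.52 in estradiol. Its fall of 0.31 on the log2 scale (SE 0.11, adjusted p = 0.0388) was the smallest called, with 2 of 11 ablation arrays below the lowest sham array. The call was lost without sham array 1, 5, 8, 9, 10, 13 or 14 or ablation array 1, 2, 6, 7 or 9, where the adjusted p lay between 0.0511 and 0.0827.

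The remaining thin filament members were not called. Their changes with ablation were 0.17 for Cald1 (caldesmon, which blocks myosin from actin), 0.03 for Tpm1, -0.16 for Tpm4, 0.11 for Lmod1 (leiomodin, which starts actin filaments) and 0.10 for Smtn (smoothelin, a marker of contractile smooth muscle). The interval of Smtn was wide, from -0.49 to 0.69, and its signal in single arrays ran from -3.47 to -0.35 in sham.

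Anchors and LIM proteins join the filaments to each other and to the membrane. Pdlim3, the actinin-associated LIM protein, ran from 0.69 (median 1.20) to 1.44 in sham, from 0.41 (median 0.63) to 0.97 in ablation, and from 0.14 (median 0.46) to 0.79 in estradiol. It fell 1.46-fold with ablation (-0.55, SE 0.08, adjusted p = 7.5e-06), and each of the 11 ablation arrays lay below the sham mean.

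Csrp2, a cysteine-rich LIM protein of smooth muscle and mesenchyme, ran from 1.91 (median 2.23) to 2.53 in sham, from 1.38 (median 1.77) to 2.20 in ablation, and from 1.22 (median 1.76) to 1.92 in estradiol. Of the 11 ablation arrays 9 were below the lowest sham array, and the fall was 1.37-fold (-0.46, SE 0.09, adjusted p = 0.000189). Its relative Csrp1 ran from 1.78 (median 2.42) to 2.76 in sham, from 1.71 (median 2.10) to 2.48 in ablation, and from 1.97 (median 2.21) to 2.43 in estradiol. These groups overlapped, and the fall was 1.25-fold (-0.32, SE 0.10, adjusted p = 0.0198).

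Flna, filamin A, which cross-links actin and ties it to integrins, ran from 2.22 (median 2.59) to 2.87 in sham, from 1.96 (median 2.18) to 2.64 in ablation, and from 1.83 (median 1.93) to 2.11 in estradiol. It fell 1.29-fold with ablation (-0.37, SE 0.08, adjusted p = 4.0e-04), with 7 of 11 ablation arrays below the lowest sham array.

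Des, desmin, the intermediate filament of muscle, ran from -0.05 (median 0.61) to 1.06 in sham, from 0.11 (median 0.21) to 0.71 in ablation, and from 0.09 (median 0.36) to 0.68 in estradiol. The ablation arrays lay inside the sham range, and the difference of -0.24 (SE 0.11, 95% interval -0.45 to -0.03) had an adjusted p of 0.109. Without sham array 2 it was called at -0.29 (adjusted p = 0.0337). Against the 4 sham arrays described as irradiated it was -0.06 (adjusted p = 0.827), and against the 10 described as control -0.31 (adjusted p = 0.0651).

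Pdlim5, a PDZ and LIM protein at the actinin lattice, ran from -1.56 (median -0.97) to -0.49 in sham, from -1.77 (median -1.27) to -0.86 in ablation, and from -2.32 (median -1.55) to -1.01 in estradiol. Pdlim7, its relative, ran from -1.20 (median -0.49) to -0.16, from -1.31 (median -0.83) to -0.35, and from -1.01 (median -0.96) to -0.74. Neither was called with ablation, where the changes were -0.30 for Pdlim5 (adjusted p = 0.147) and -0.24 for Pdlim7 (adjusted p = 0.0876). Pdlim7 passed without sham array 7 (adjusted p = 0.0223) or without ablation array 11 (adjusted p = 0.0391). The actin cross-linkers Actn1 and Actn4 differed by 0.06 and 0.08, with 95% intervals of -0.17 to 0.28 and -0.14 to 0.30.

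Integrins, the receptors that hold the cell to the basement membrane, gave no call. The changes with ablation were -0.20 for Itgb1, the shared beta chain (95% interval -0.40 to 0.00), -0.10 for Itga1, a collagen and laminin receptor chain (-0.43 to 0.22), and 0.04 for Itga5, the fibronectin receptor chain (-0.17 to 0.26).

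Among the enzymes that control contraction, Mylk, myosin light chain kinase, ran from 2.85 (median 3.29) to 3.64 in sham, from 2.26 (median 2.74) to 2.92 in ablation, and from 1.89 (median 2.48) to 2.63 in estradiol. Of the 11 ablation arrays 9 lay below the lowest sham array. It fell 1.57-fold with ablation (-0.65, SE 0.10, adjusted p = 1.1e-05). Rock1, a protein kinase, and Ppp1r12a, the targeting subunit of myosin phosphatase, differed by -0.01 (95% interval -0.23 to 0.22) and -0.02 (-0.27 to 0.23), and neither was called.

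The transcription factors gave no call. Srf ran from 0.93 (median 1.17) to 1.31 in sham, from 0.65 (median 1.13) to 1.34 in ablation, and from 0.92 (median 1.05) to 1.12 in estradiol, and ablation differed from sham by -0.07 (95% interval -0.22 to 0.08, adjusted p = 0.572). Myocd, myocardin, ran from -1.28 (median -1.04) to -0.45 in sham, from -1.30 (median -0.91) to -0.49 in ablation, and from -1.70 (median -1.13) to -0.42 in estradiol, and the difference was 0.13 (-0.11 to 0.37, adjusted p = 0.503). These are RNA levels of the factors and say nothing of their activity.

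When sham was limited to the 4 arrays described as irradiated, 9 of the 14 members called in ablation against sham were called. Those that lost the call were Myh11 (-0.26, adjusted p = 0.165), Flna (-0.30, adjusted p = 0.067), Synpo2 (-0.54, adjusted p = 0.052), Csrp1 (-0.38, adjusted p = 0.0642) and Tagln2 (-0.40, adjusted p = 0.0537). With the 10 described as control, 12 were called, and without the arrays with Prm1 above 0, an alternative added after seeing the data, 12 as well. Calls over all probe sets fell too. In the main fit 2181 of 21269 were lower, against 1492 with the 4 arrays and 1599 with the 10. Without the arrays with Prm1 above 0 it was 1587 of 20582.

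Adding estradiol to ablation brought 1 further call among the probe sets that stand for the members, in Myl9. None of the members called lower with ablation was called higher again. Of the 33 members 1 was lower and 0 were higher than under ablation (limma, adjusted p under 0.05), where 4.92% of all probe sets were lower and 0.592% higher. At an unadjusted p under 0.05, 3 members were lower and 0 higher. The median change was -0.05 against -0.03 over all probe sets, and in none of the members did the groups separate without overlap, which 1.35% of all probe sets did in the lower direction. The called gene was Myl9, which fell a further 1.24-fold (-0.31, SE 0.09, adjusted p = 0.042), with 5 of 6 estradiol arrays below the lowest ablation array. That call was lost without ablation array 2, 4, 5, 9 or 11 or estradiol array 1, 3, 4, 5 or 6 (adjusted p 0.0549 to 0.144). It was also lost with quantile normalization and with each array centred on its median, among 6 other alternatives whose adjusted p ran from 0.0554 to 0.28.

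The other 32 members differed between estradiol with ablation and ablation alone by -0.74 to 0.16 without passing the test. The lowest value, for Smtn, had a 95% interval of -1.49 to 0.01 and rests in part on estradiol array 3, without which it was -0.32. Tpm2 and Flna were lower than the ablation mean in 6 of 6 estradiol arrays, with differences of -0.36 (95% interval -0.66 to -0.06, adjusted p = 0.173) and -0.25 (-0.45 to -0.06, adjusted p = 0.127). Tagln was on the other side at 0.16 (-0.22 to 0.55). Acta2 differed by 0.03 with an interval of -0.45 to 0.51, and Des by 0.04 with an interval of -0.23 to 0.31. Intervals of this width leave room for changes of some size, so the lack of a call does not show equal levels.

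Ablation with estradiol differed from sham in 14 of 33 members, all lower, with 0 higher and a median change of -0.25 against -0.03 over all probe sets. Over all probe sets 10.4% were lower and 4.15% higher. This comparison shares its groups with both others, so its calls are no separate evidence, and the values stand side by side. In 5 members every estradiol array lay below every sham array, as in 2.15% of all probe sets. These were Tpm2 (-1.19, 2.28-fold, adjusted p = 4.7e-08), Actg2 (-1.08, 2.12-fold, adjusted p = 7.5e-08), Mylk (-0.81, 1.76-fold, adjusted p = 8.1e-06), Myl9 (-0.67, 1.59-fold, adjusted p = 8.3e-07) and Flna (-0.63, 1.54-fold, adjusted p = 3.1e-06).

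The other 9 calls of ablation with estradiol against sham were Tagln (-0.91), Synpo2 (-0.74), Pdlim3 (-0.72), Pdlim5 (-0.63), Cnn3 (-0.59), Cnn1 (-0.55), Csrp2 (-0.54), Myh11 (-0.40) and Pdlim7 (-0.36). Pdlim5 and Pdlim7 were called here and not with ablation alone, and Csrp1 (-0.20) and Tagln2 (-0.21) the other way round, while the differences between estradiol and ablation themselves did not pass for any of these genes. Pdlim5 was not called without estradiol array 2 (-0.49, adjusted p = 0.0618). Its other 2 tested probe sets differed from sham by 0.25 and 0.31 without a call, and the mean of its kept probe sets by -0.02 (adjusted p = 0.962), so the call rests on the probe set of highest mean. That of Synpo2 against sham does too, with a mean of the kept probe sets at -0.16 (adjusted p = 0.34). Pdlim7 was not called without sham array 2, 4, 5, 6, 8, 10, 12, 13 or 14 or estradiol array 2, 3, 4, 5 or 6 (adjusted p 0.0505 to 0.0918). With the 4 sham arrays described as irradiated 9 members were called, and Tagln was then -0.60 with an adjusted p of 0.14. Over all probe sets 1322 were lower in that fit, against 2211 in the main fit. Quantile normalization changed the balance over all probe sets from 2211 lower and 882 higher to 1963 lower and 1753 higher, and gave 12 members lower and 1 higher.

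Several members are read by more than 1 probe set, which can report different transcripts or 3′ ends, and these did not always move together. For Myh11 the other tested probe set changed by -0.65 with ablation (adjusted p = 0.188), and for Mylk it fell by 0.73 (adjusted p = 0.0026), the same direction as the main probe sets. For Synpo2 the other 2 tested probe sets changed by 0.12 and 0.09, and the mean of the kept probe sets of the gene by -0.15 (adjusted p = 0.221), so the call rests on the probe set of highest mean. For Tpm4 the other probe set fell by 0.50 (adjusted p = 0.013) where the main one was not called. For Ppp1r12a another probe set was lower by 0.39 in estradiol than in ablation (adjusted p = 0.0449). Its main probe set differed by -0.06 and its further tested ones by 0.18 and -0.44, without a call.

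Cald1 and Tpm1 had a probe set that rose with ablation. The other tested probe set of Cald1 rose by 0.51 (adjusted p = 0.00353), from a mean of 0.79 in sham to 1.30, and was 0.82 in estradiol. A further probe set of Tpm1 rose by 0.56 (adjusted p = 7.4e-05), from 0.46 to 1.02, and was lower again by 0.75 in estradiol than in ablation (adjusted p = 0.000129), at 0.27. The other 4 tested probe sets of Tpm1, the main one included, changed by -0.22 to 0.03 with ablation and none was called. Both probe sets were singled out after their values were seen. Which transcripts they read was not analysed here.

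**Figure D4:**
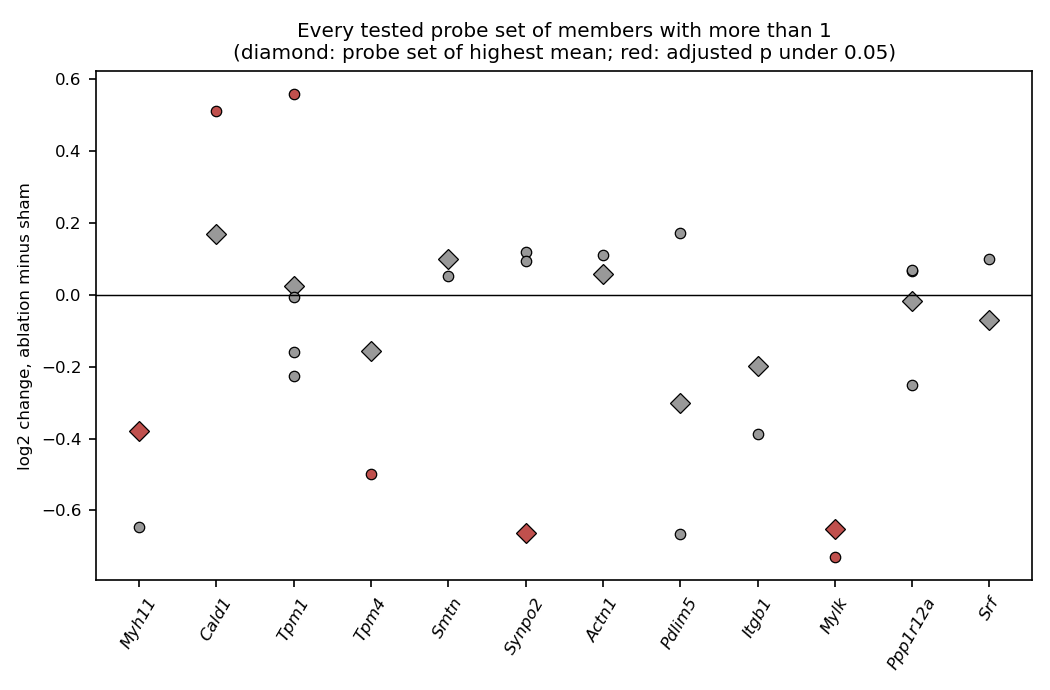
Log2 change with ablation for every tested probe set of the members that have more than 1, with a diamond for the probe set of highest mean and red for an adjusted p under 0.05. The sets of Mylk and of Myh11 lie together below 0, Synpo2 spans -0.66 to 0.12, and Cald1 and Tpm1 each have a red point above 0.5.

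Some members also varied together across the sham arrays. Correlations of Acta2 with 5 other members were computed within each group, 15 in all, and 2 had an adjusted p under 0.05. Across the 14 sham arrays Acta2 followed Des, with Pearson's r of 0.79 (permutation p = 0.00075, adjusted 0.0112) and Spearman's coefficient of 0.82 (adjusted permutation p = 0.00945), and r was 0.84 without the 2 arrays farthest from the median of Acta2. Within the 10 sham arrays described as control r was 0.82. With Actg2 Pearson's r was 0.71 (adjusted permutation p = 0.031), Spearman's coefficient 0.67 (adjusted permutation p = 0.0539), r 0.79 without the 2 farthest arrays and 0.65 within the 10 arrays. With Myh11 r was 0.02 and with Cnn1 -0.23 in the same 14 arrays. In the 11 ablation arrays Acta2 and Des had r of 0.72 with an adjusted permutation p of 0.0614. There Acta2 and Actg2 had r of 0.06 (adjusted permutation p = 0.93). With Tagln r was 0.55 in sham (adjusted permutation p = 0.153), 0.44 in ablation and -0.60 in the 6 estradiol arrays. In estradiol r was 0.65 with Des and 0.82 with Actg2, and -0.34 and 0.08 without the 2 farthest arrays. No correlation within ablation or estradiol had an adjusted p under 0.05. Genes of an array share its scaling and the mix of cells in its piece of testis.

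Other genes of the pathway were counted from lists that hold no member. The counts stand beside shares over all probe sets of 10.3% lower and 9.15% higher with ablation. For ablation with estradiol against sham these were 10.4% and 4.15%, and against ablation 4.92% and 0.592%. No list was tested against these shares. In the list of contraction control 2 of 14 tested genes fell with ablation, near the share over all probe sets, and 0 rose. The median change was 0.06 against 0.02 over all probe sets. The genes that fell were Ppp1r14a, the CPI-17 inhibitor of myosin phosphatase in smooth muscle (-1.30, SE 0.24, adjusted p = 0.000109), and Kcnma1, the pore subunit of the large-conductance potassium channel whose beta subunit is Kcnmb1 (-0.89, SE 0.11, adjusted p = 7.7e-08). Ppp1r14a had a median of -0.36 in sham, -1.63 in ablation and -1.86 in estradiol, and its signal in single estradiol arrays went as low as -4.30. The 40th percentile of the estradiol arrays ran from -1.93 to -1.81, so the size of its differences there rests on signals near the filter level. Against sham the estradiol arrays were lower by 1.18 in Kcnma1 (adjusted p = 1.3e-08) and by 1.99 in Ppp1r14a (adjusted p = 3.1e-06), and in both genes every estradiol array lay below every sham array.

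The list of SRF cofactors and other SRF targets held more rises than falls. With ablation 4 of its 17 tested genes rose and 1 fell, with a median change of -0.02. Ctgf, connective tissue growth factor, rose 2.19-fold (1.13, SE 0.10, adjusted p = 9.2e-11), from between -0.44 and 0.58 in sham to between 0.79 and 1.77 in ablation, with no overlap. Ldb3, a Z-disc protein, rose by 0.68 (adjusted p = 5.1e-06). Tgfb1i1, the focal adhesion protein Hic-5, fell by 0.43 (adjusted p = 2.4e-05). Under ablation with estradiol against sham 5 rose and 1 fell, with Ctgf at 1.43 (adjusted p = 4.0e-11).

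The basement membrane list had 6 of 12 genes lower and 0 higher with ablation, with a median change of -0.31. Col4a1, a type IV collagen chain, fell by 0.97 (adjusted p = 5.5e-10) and Lama2, a laminin chain of muscle-type basement membranes, by 0.69 (adjusted p = 7.9e-08), and in both every ablation array was below every sham array. Lamb1, a laminin beta chain, fell by 0.67 (adjusted p = 1.9e-05). With estradiol against ablation 1 gene fell, the perlecan gene Hspg2 (-0.44, adjusted p = 0.0309), and against sham 8 of 12 were lower.

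Of the dystrophin and integrin anchorage list 4 of 13 fell with ablation and 0 rose, with a median change of -0.17. Those of lowest adjusted p were Itgb5 (-0.44, adjusted p = 0.000884), Parva, a partner of integrin-linked kinase (-0.33, adjusted p = 0.00266), and Fblim1 (-0.46, adjusted p = 0.00479), and the remaining call, Itga7, an integrin chain that binds laminin in muscle, had the largest fall of the 4, by 0.49 (adjusted p = 0.0318). Of the contractile peptides and receptors 5 were tested: Agtr1a, the angiotensin receptor, rose by 0.64 (adjusted p = 7.4e-05) and Ece1, which makes active endothelin, fell by 0.28 (adjusted p = 0.0343). Of the hormone receptor list 3 were tested and Pdgfra, a growth factor receptor of interstitial and peritubular cells, fell by 0.55 (adjusted p = 0.000114). Esr1 and Pgr were below the filter level and were not tested.

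**Figure D5:**
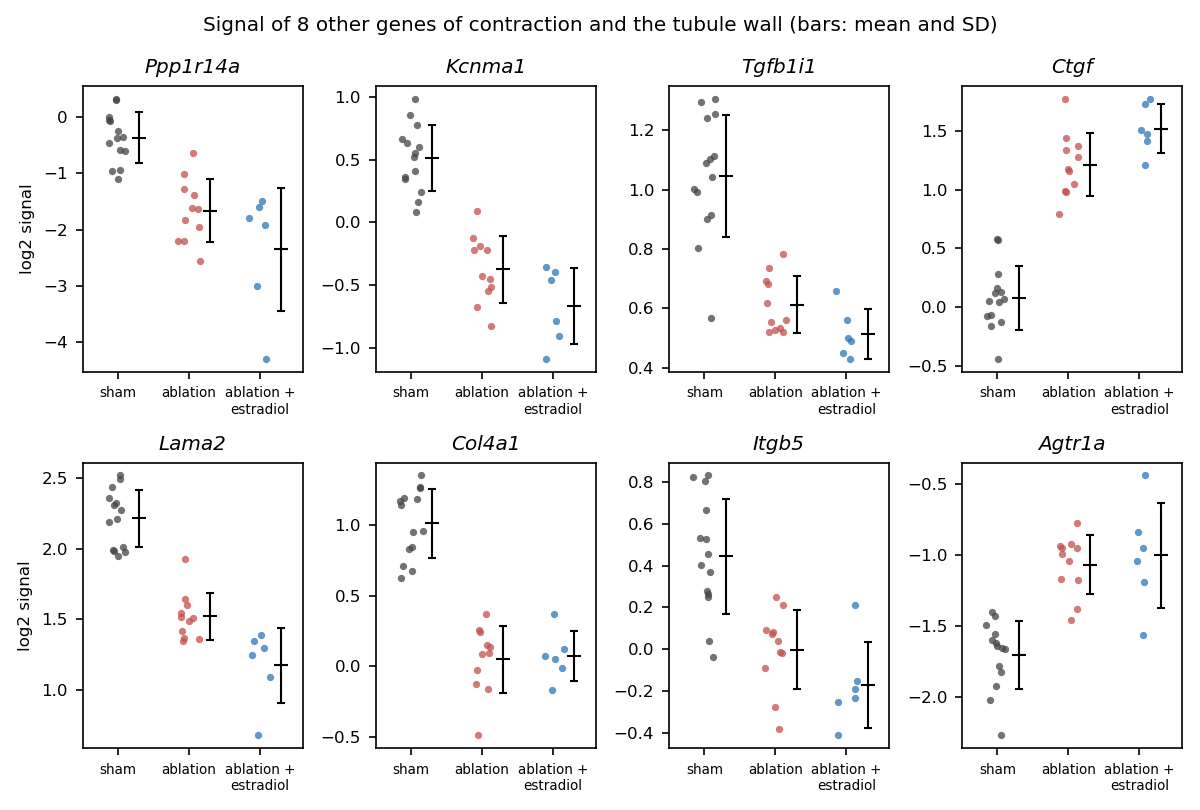
Log2 signal of 8 genes of the neighbouring lists in each array (points) with the mean and SD of each group (bars). Ctgf and Agtr1a lie higher in ablation than in sham, and Ppp1r14a, Kcnma1, Tgfb1i1, Lama2, Col4a1 and Itgb5 lie lower, with Lama2 and Col4a1 of ablation wholly below sham.

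Markers of other cells moved in the same comparison, where 10.3% of all probe sets were called lower and 9.15% higher. With ablation 6 of 8 fibroblast and matrix genes, 7 of 8 macrophage genes, 6 of 7 Leydig cell genes and 2 of 7 endothelial genes fell. The seventh Leydig cell gene, Lhcgr, the luteinizing hormone receptor, rose by 0.35 (adjusted p = 0.0183). Of 8 markers of vascular smooth muscle and pericytes 2 fell (Rgs5, -0.69, and Mcam, -0.60) and 1 rose (Abcc9, 0.36). All 5 spermatogonial genes tested and 2 of 7 Sertoli cell genes rose. The summed level of the vascular list (log2 of the summed signals) ran from 2.29 to 2.79 in sham, 2.26 to 2.66 in ablation and 2.14 to 2.35 in estradiol. That of the fibroblast list ran from 5.38 to 5.94 in sham, 4.69 to 5.08 in ablation and 4.45 to 4.81 in estradiol. For Leydig cells it was 5.54 to 6.55, 4.20 to 4.51 and 3.73 to 4.30, and for spermatogonia 0.01 to 0.65, 0.89 to 1.44 and 1.39 to 2.01. The summed Sertoli cell level was 5.98 to 7.35 in sham, 6.87 to 7.28 in ablation and 6.27 to 7.24 in estradiol, and that of macrophages 3.84 to 4.50, 3.35 to 3.76 and 3.36 to 3.73.

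Among 5 striated muscle genes tested, Myom2 and Myh6 rose with ablation, by 1.87 and 1.53, and the summed level was 1.13 to 1.59 in sham, 2.25 to 3.37 in ablation and 1.43 to 1.84 in estradiol, a direction opposite to the called members here. Of the spermatid genes 0 of 4 tested were called with ablation, with Prm2, Tnp2 and Akap4 below the filter level, and of the epididymis genes 0 of 2. The part of these cells in the lower contractile signals was not tested.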

How the data were processed

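Biotin-labelled RNA made from 10 ug of total RNA per testis sample was hybridised to 1 array each, per the labels' protocols. The deposited values are MAS5 signals on a logarithmic scale, per the submitters' processing notes and the values. The authors state neither the log base nor the scaling in the sources used here, and values were used as log2 without further normalization. Detection calls were not used here. Of 31099 probe sets, 57 controls were left out, and 21269 exceeded the 40th percentile of their own array in at least 6 arrays. Symbols came from the platform annotation, brought up to date by gene number. Differences were tested with limma 3.58.1 in R 4.3.3 on all 31 arrays with 3 groups, moderated with a trend on mean signal, 2-sided, with Benjamini and Hochberg adjustment over all kept probe sets and a threshold of 0.05.

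The members, lists and tests were chosen with earlier results of these data known. Values are given in full for members called in any comparison and for Acta2, Myh11, Des, Cnn1, Srf and Myocd, and for up to 3 called genes per neighbouring list and 2 per marker list, with any other named for the reason given there. Correlations were tested with 100000 permutations, or exactly in the group of 6. The pipeline was tested on simulated data. No batch term could be fitted. Replicate numbers were not used as pairs in the main fit. The deviations of arrays with 1 number correlated between -0.086 and 0.047 for ablation and sham (11 pairs). They correlated between -0.18 and 0.059 for estradiol and ablation (6 pairs). For estradiol and sham the range was -0.011 to 0.376 (6 pairs, 3 over 0.1), so pairing there is not settled. Alternatives were other filters, scalings, fits, sham subsets, probe set rules, a replicate block and leaving out arrays.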

Additional observations from a re-analysis of the deposited data

Results flagged for a closer look

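In 4 of 34 members a single estradiol array lay far from the other 5, by a gap that chance gives in about 1 of 20 groups of this size. Tagln was 0.22 in estradiol array 2, with the others at -0.49 to -0.32. Smtn was -4.03 in array 3, with the others at -2.07 to -1.16. Actn1 was 0.94 in array 5, with the others at 1.68 to 1.91. Itga1 was -1.85 in array 6, with the others at -0.97 to -0.65. The arrays differ between the genes, so no single array stood apart in all of them.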

How the results depend on the processing

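No call of a member reversed its direction under any alternative run. In ablation against sham, 9 of the 14 called members stayed called in all 12 alternatives other than leaving out an array, and 13 in all 25 refits without an array. The count lower was 9 with sham limited to the 4 arrays described as irradiated, where 1492 of all probe sets were lower against 2181. It was 13 to 15 without an array. The count higher was 1 with quantile normalization and 1 with the mean of all kept probe sets of a gene, Cald1 in both, and 0 without any array. In estradiol with ablation against ablation, the count lower was 0 with no filter, with quantile normalization, with each array centred on its median, with only the compared groups in the fit, with a replicate block and without the arrays with Prm1 above 0, and 0 to 1 without an array, where the count higher was 0. In that comparison calls over all probe sets were 1047 lower and 126 higher, and 988 and 312 with quantile normalization. In estradiol with ablation against sham, the count lower was 9 with the same 4 sham arrays, where 1322 of all probe sets were lower against 2211. It was 12 to 14 without an array. The count higher was 1 (Cald1) with quantile normalization and 0 without any array, and 8 of 14 members stayed called in all 12 alternatives. The causes were not tested. The replicate block treats arrays of 1 number as paired and keeps only numbers held by both groups (11, 6 and 6 pairs). Sham arrays 12, 13 and 14, described as irradiated, are thus absent against ablation. Against estradiol only sham arrays 1 to 6, all described as control, remain. Pairing and the smaller set of arrays cannot be told apart here. In these fits 14, 0 and 10 members were lower in the 3 comparisons, and 1501, 475 and 1476 of all probe sets. Of the first 14, 13 were those of the main fit. Acta2 was called with ablation (-0.47, adjusted p = 0.0324), in a fit that held only array 11 of the sham arrays described as irradiated. Signals near the filter level, as in Smtn, limit what could be called.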
